A study of Rattus norvegicus with 42 samples.

Results

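In GH4C1 cells without Neat1, 114 of 13776 measured genes (0.828%) had at least 4 times the wild-type level at every one of 7 sampling times, when 1 wild-type library that stands apart was left out. With that library included 35 genes met the rule, and with levels taken over full library totals 54 did. GH4C1 is an established rat pituitary line that makes growth hormone and prolactin. Neat1 is a long non-coding RNA that stays in the nucleus and forms the core of paraspeckles, bodies that hold RNA-binding proteins and some RNAs. Paraspeckles are known for retaining RNAs in the nucleus, and loss of Neat1 takes them apart. None of this background was measured here.

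The series compared wild-type cells (WT, labelled as untreated) with Neat1 -/- cells (KO), made with CRISPR-Cas9. Both were given fresh medium, and harvests followed at intervals of 4 h between 10 h (ZT10 in the labels) and 34 h (ZT34), with 3 replicates for each genotype and time, 42 libraries in all. All cells came from the same line, grown in the same serum-containing medium. Whether KO is 1 clone, and whether replicates are separate cultures, is not given in the sources used here. Genotype therefore cannot be told apart from clone, from the Cas9 treatment or from any batch that went with genotype. The p-values measure only the spread between these libraries. In bulk RNA, a higher level in every cell and more cells with the RNA cannot be told apart either.

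The genes were chosen by their measured KO and WT levels. A level is given as CPM, the gene's count scaled to a fixed library total, from which 2 genes were left out. These ranked 1 and 3 by counts in KO. Together they took 17.6% to 21.2% of a KO library but 0.0308% to 0.335% of a WT library, and shares of all genes that rest on CPM are over the other 13774. A gene was a member when its mean in KO was at least 4 times its mean in WT at each of the 7 times and its KO level, averaged over times, was at least 5 CPM. WT ZT34 replicate 1, which stands apart from the other WT libraries, was left out, so the rule used 21 KO and 20 WT libraries. The difference between KO and WT in those 41 libraries is thus how the members were found, and is given below as description with no test. Because CPM is not divided by gene length, levels are compared between libraries and not between genes.

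The count tables name genes by Ensembl identifiers. Of the 13776 identifiers, 0 matched a symbol in the RefSeq table used here, so no member is named by symbol and no function is given for it. The level of Neat1, the pituitary and other cell type markers and the gene lists drawn up for pathways were not analysed here, and the labels of genotype and cell line were used as given. At most 2 identifiers are printed for each direction of a comparison. The other members are given by counts and ranges. Libraries held 34.5 to 68.8 M counts in WT and 45.9 to 60.5 M in KO. In single KO libraries members had from 9 to 92967 counts.

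The members covered a wide range of levels. In KO their levels, averaged over the 7 times, ran from 5.43 to 1429 CPM with a median of 29.4 CPM, against a median of 28.3 CPM over all genes. In WT they ran from 0.162 to 217 CPM with a median of 4.72 CPM, against 25.6 CPM over all genes. The lower WT median is what the rule selects. In WT 9 members lay under 1 CPM, and 30 were at 10 CPM or more, so the members were not limited to RNAs near absence in WT. The 5 highest members had KO levels of 1429, 1246, 812, 611 and 590 CPM beside WT levels of 211, 217, 135, 61.7 and 58.3 CPM in the same order. A count of 0 in some WT library was found for 1 member.

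**Figure D1:**
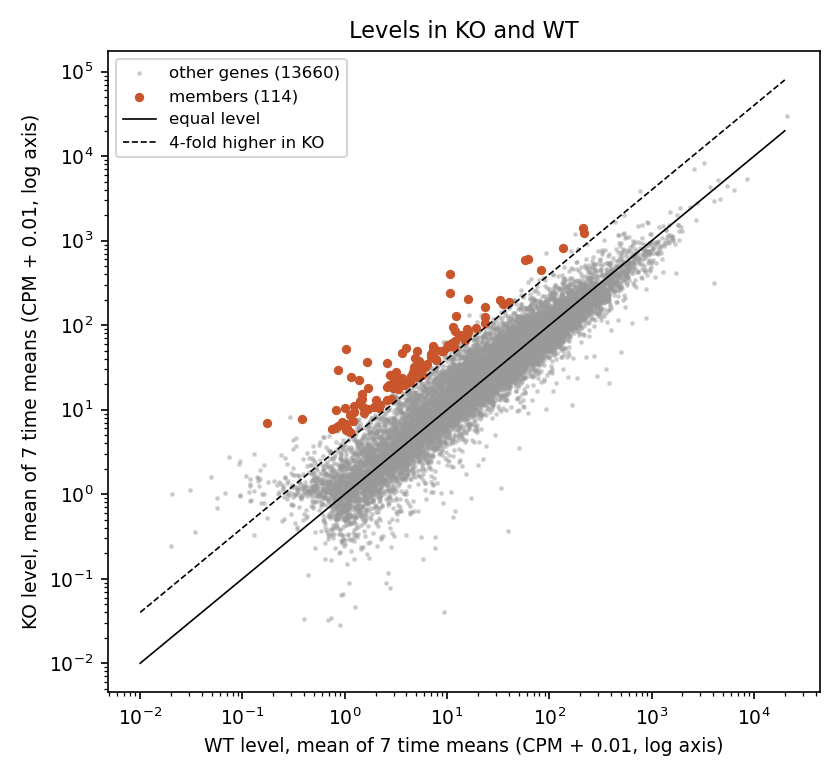
Level of each gene in KO (vertical) against WT (horizontal), both as the mean of the 7 time means in CPM plus 0.01 on log axes, without WT ZT34 replicate 1. The 114 members (orange) lie above the dashed line of 4-fold, because the rule placed them there, and stretch from 5.43 to 1429 CPM in KO.

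Most members exceeded the required ratio by a modest margin. The ratio of the mean levels, KO over WT, was 4.43 to 51.8 with a median of 6.11, and it was at least 10 in 19 members and at least 20 in 8. The smallest ratio over the 7 times, on which membership turns, had a median of 4.82 and an upper quartile of 5.96. The 4 members nearest the threshold had smallest ratios of 4.04, 4.04, 4.06 and 4.07. The 4 genes just outside it had 3.99, 3.98, 3.97 and 3.96, and 42 further genes met the ratio but had a KO level under 5 CPM. By edgeR the log2 fold change of KO over WT, averaged over times, was 2.13 to 5.69 with a median of 2.59. Scaling by library totals moved the median of all genes from -0.01 to -0.30, and that of the members to 2.30. All 114 members were called higher in KO at an adjusted p under 0.05. Among all 13776 genes 90.7% were called and 44.8% were called higher in KO, and nothing is read from the members' count, since the rule used the same contrast.

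Without WT ZT34 replicate 1 the genotypes were fully apart at nearly every member. Every KO library lay above every WT library of the 41 in 112 of the 114 members, against 22.4% of all genes, a share that the rule again sets. Over all 42 libraries this held for 61 members, and the share of all genes was not computed for that set. The summed level of the members was 1.02% ± 0.0611 (SD, n = 21) of counts in KO and 0.148% ± 0.0123 (SD, n = 20) in WT, after the 2 genes were left out. The 3 highest members made up 34.2% of that sum in KO and 37.8% in WT. The ratio varied little in the middle of the distribution, with medians over members of 6.35 at 10 h, 6.31 at 14 h, 6.09 at 18 h, 6.27 at 22 h, 6.32 at 26 h, 6.80 at 30 h and 5.45 at 34 h. The lowest ratio fell at 34 h for 49 members, and the highest at 30 h for 29.

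The member with the largest fitted fold change was ENSRNOG00000046548. Its level in the 21 KO libraries was 46.2 CPM at the lowest, 52.4 CPM at the median and 57.6 CPM at the highest. In the 20 WT libraries it was 0.692, 1.01 and 1.29 CPM. The genotypes were far apart in every library, with a log2 fold change of 5.69 (SE 0.04) and a ratio of 40.4 to 71.7 over the 7 times. Its level still moved with time: edgeR called both time courses (adjusted p = 0.0440 in KO and 0.00456 in WT), with a highest time mean 1.19 times the lowest in KO and 1.61 times in WT. The second, ENSRNOG00000055323, had a similar log2 fold change of 5.65 but an SE of 0.46. Its KO levels ran from 0.184 to 17.4 CPM with a median of 6.20 CPM, and its WT levels from 0 to 1.40 CPM with a median of 0.0844 CPM. The ranges overlapped, and the 3 KO replicates at 34 h spanned almost the whole KO range, at 17.4, 0.689 and 0.184 CPM.

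**Figure D2:**
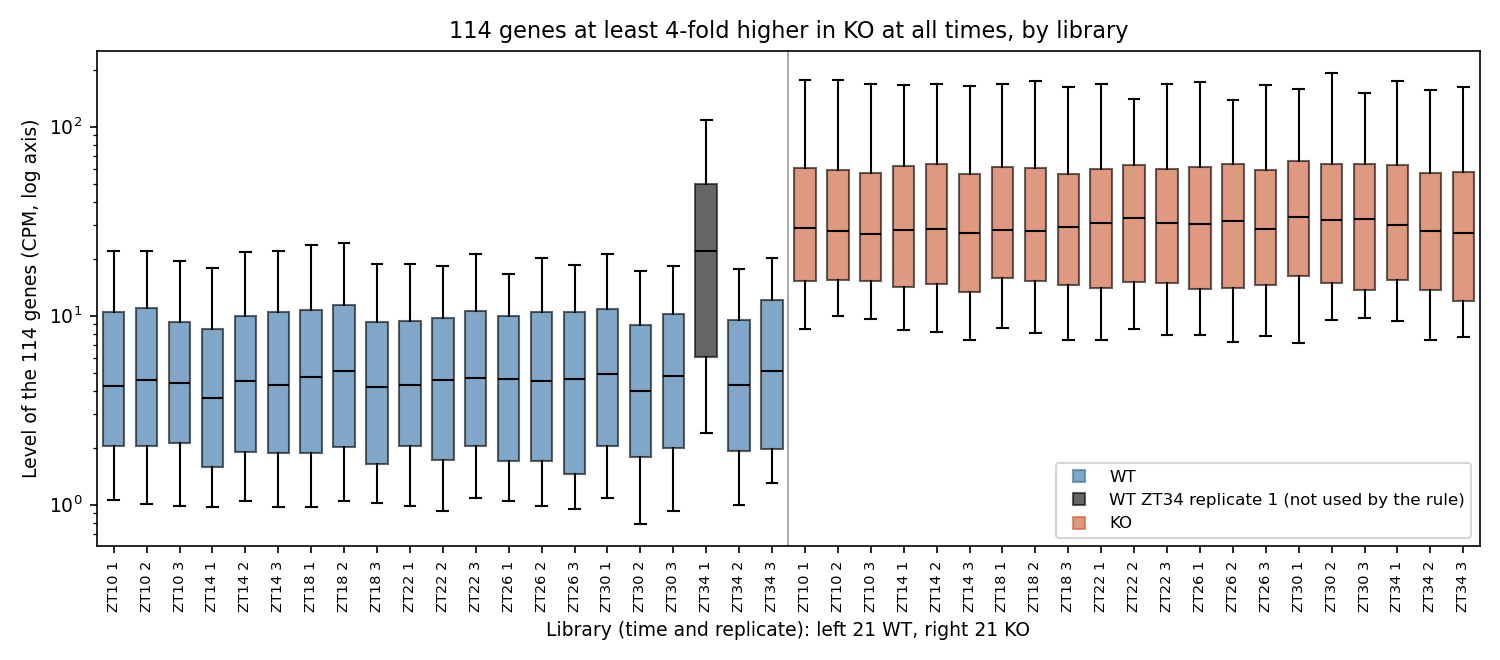
Levels of the 114 members in each of the 42 libraries, in CPM on a log axis; boxes are quartiles with the median as a line, and whiskers run from the 10th to the 90th percentile over members. Medians lie at 27.0 to 33.2 CPM in KO (orange) and 3.66 to 5.09 CPM in 20 WT libraries (blue), and at 21.997 CPM in WT ZT34 replicate 1 (black).

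WT ZT34 replicate 1 was left out by the rule, but it is not an independent look at the members. With it included 35 genes met the rule, all of them among the 114, so leaving it out favoured genes that are high in it. In this library most members were far above their level in the other WT libraries, though by very different amounts. The summed level of the members was 0.756% of its counts, against 0.128% to 0.184% in the other 20 WT libraries and 0.941% to 1.15% in KO. It held the highest WT value of 97 of the 114 members (85.1%), whereas 41% of all genes were highest there. Of the other 20 WT libraries none held the highest value of more than 5 members. Against the mean of WT ZT34 replicates 2 and 3, its level was at least 4 times as high for 64 members (56.1%), against 4.39% of all genes. With 1 such library there is no test of these shares. A member is by construction low in the other WT libraries, which raises its ratio here to a degree that was not measured. Its depth, 39.2 M counts, was inside the range of the other WT libraries. The 2 left-out genes took 0.335% of its counts, just above the WT maximum of 0.304% and far from KO.

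The members fell into unlike classes in that library. Its value reached at least the KO mean at 34 h for 41 members, and lay above all 21 KO libraries for 22. For 46 members it lay between the highest other WT library and the lowest KO library. For 21 members it was under 1.5 times the mean of the other WT ZT34 libraries, and for 15 it was below that mean. The members with the largest differences between the genotypes were mostly of the last kind. Of the 8 members with a ratio of at least 20, 6 stayed under 1.5 times the WT level in this library, against 15 of the 106 others. Among the 6 are ENSRNOG00000055323 and a member that moved almost as one with it in KO (Pearson correlation 0.993). Their WT levels were only 0.162 and 0.374 CPM, and whether they share reads was not tested. These classes were drawn after the values were seen and are a description.

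Single members show how far apart the classes were, and the lowest ones are named after their values were seen. ENSRNOG00000006217 measured 99.5 CPM in WT ZT34 replicate 1, against 6.03 and 9.80 CPM in replicates 2 and 3 and 36.6, 28.7 and 31.2 CPM in the KO replicates of that time. It was 12.6 times the mean of the other WT ZT34 libraries and 3.09 times the KO mean, so this WT library lay above all KO libraries. ENSRNOG00000031033 measured 1004 CPM there, against 79.7 and 91.6 CPM in replicates 2 and 3, and exceeded the highest KO library at 925 CPM. ENSRNOG00000028041 went the other way, at 0.846 CPM in this library against 2.02 and 1.80 CPM in replicates 2 and 3. Its KO levels at 34 h were 18.7, 19.5 and 20.49 CPM, so the WT library was at 0.443 times the other WT libraries and far under KO. ENSRNOG00000051920 had 3.10 CPM there, against 6.37 and 5.02 CPM in replicates 2 and 3, a ratio of 0.544, and 19.2, 30.1 and 30.6 CPM in KO at 34 h. The largest member by KO ratio, ENSRNOG00000046548, was also at the WT level, with 0.743 CPM against 0.897 and 1.02 CPM.

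**Figure D3:**
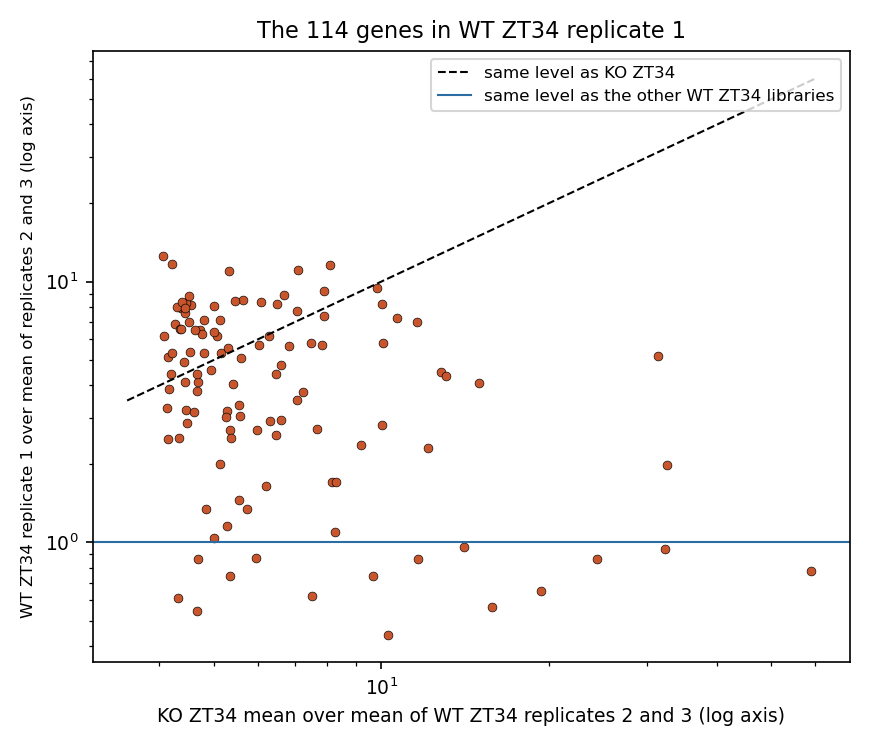
Each point is a member: WT ZT34 replicate 1 (vertical) and the KO ZT34 mean (horizontal), both divided by the mean of WT ZT34 replicates 2 and 3, on log axes. Points run from 0.443 to 12.6 on the vertical axis; 41 reach the dashed line of the KO level, and 21 lie under 1.5, near the blue line of the other WT libraries.

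Genes lower in KO by the mirrored rule show the same library from the other side. There were 41 such genes, and WT ZT34 replicate 1 held the lowest WT value of 31 of them, while 31.5% of all genes were lowest there. It held the highest value of 2. These genes are by construction high in the other WT libraries, which favours a low place for this one to a degree that was not measured. No test between the sets was possible with 1 library.

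Change over time within a genotype was not used by the rule, and it was tested by edgeR's quasi-likelihood F test over all genes in a model of the 14 groups and 41 libraries. The highest of the 7 KO group means was under 1.5 times the lowest for 72 members, and under 2 times for 103. That ratio had a median of 1.35 over members and 1.30 over all genes, and the CV over KO libraries a median of 12.5% over members and 11.1% over all genes. The KO time course was called at an adjusted p under 0.05 for 64 of the 114 members (56.1%), against 60.6% of all genes, and the WT time course for 41 (36.0%), against 44.1%. Both shares were somewhat under those of all genes, and this order changed with the program and with the libraries in the fit. Low WT levels, which the rule selects, limit the WT test of members. With the program DESeq2 on the same 41 libraries, 76 members (66.7%) were called in KO, against 63.5%, and 50 (43.9%) in WT, against 48.8%. With WT ZT34 replicate 1 in the fit, 16 members (14%) were called in KO, against 36.8% of all genes, and 86 (75.4%) in WT, against 37.5%. With the libraries of the tested genotype alone, 80 (70.2%) were called in KO, against 61.8%, and 29 (25.4%) in WT, against 38.4%. Without replicate 2 of all groups, 38 (33.3%) were called in KO, against 40.3%, and 35 (30.7%) in WT, against 19.8%. Whether the members' share lay above or below that of all genes thus differed between these fits.

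The 34 h and 10 h groups lie 24 h apart. In KO, 34 h against 10 h was called higher for 20 members (17.5%), against 23.6% of all genes, and lower for 34 (29.8%), against 27.0%. The remaining 60 did not pass. The median log2 change was -0.09 over members and -0.02 over all genes. The raised members had log2 changes of 0.19 to 1.39 with a median of 0.44, and the lowered ones -0.17 to -0.86 with a median of -0.50. With library totals 20 members were called higher and 25 lower. Over all genes that scaling moved the calls from 3254 higher and 3715 lower to 4095 higher and 2906 lower. With WT ZT34 replicate 1 in the fit, 8 members (7.02%) were called higher, against 16.5% of all genes, and 6 (5.26%) lower, against 17.5%. Without replicate 3 of all groups 13 (11.4%) were called higher, against 19.1%, and without replicate 2 there were 15 (13.2%) lower, against 19.7%.

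**Figure D4:**
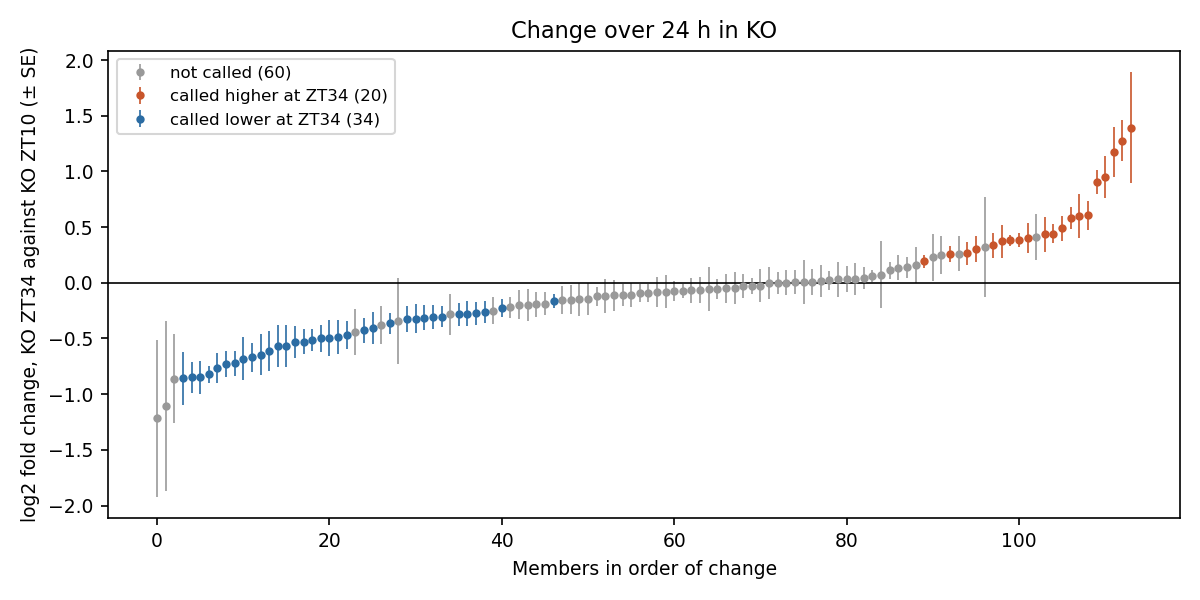
log2 fold change of KO ZT34 against KO ZT10 for each of the 114 members, in order of size, with bars of 1 SE. 20 members are called higher (orange, up to 1.39) and 34 lower (blue, down to -0.86), and 60 are not called (grey), among them the lowest values with the widest bars.

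The change came late. Relative to 10 h, the median KO level of the 20 raised members was 1.05 at 22 h, 1.13 at 26 h, 1.37 at 30 h and 1.41 at 34 h. That of the 34 lowered members was 0.997 at 22 h, 1.002 at 26 h, 0.925 at 30 h and 0.739 at 34 h. Since 34 h and 10 h chose these members, only the times between them add to the description. The WT levels at 34 h relative to 10 h had medians of 1.23 for the raised and 0.948 for the lowered members. The 3 replicates at 34 h were apart from the 3 at 10 h in 19 of the 20 raised and 30 of the 34 lowered members. The call on these same libraries favours that separation, so it adds no support. KO ZT30 replicate 1 differed from its group in most of these members: it lay on the 10 h side of both other replicates in 16 raised and 27 lowered ones. Over all members its log2 level relative to the other replicates had a median of only 0.03, with 10th and 90th percentiles of -0.51 and 0.40. The matching share of all genes was not computed, so whether the difference is particular to members is not known. Without KO ZT30 replicate 1, 20 members (17.5%) were called higher, against 24.1% of all genes, and 36 (31.6%) lower, against 27.4%.

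ENSRNOG00000050419 had the clearest late rise. Its KO replicates were at 138, 114 and 141 CPM at 10 h, 59.0, 60.2 and 60.5 CPM at 22 h, 63.4, 60.1 and 64.4 CPM at 26 h, 65.7, 220 and 150 CPM at 30 h and 315, 360 and 318 CPM at 34 h. It fell to a flat minimum and then exceeded its first level, with KO ZT30 replicate 1 still at the minimum. The log2 change from 10 h to 34 h was 1.28 (SE 0.18, adjusted p = 5.24e-07 by edgeR). In WT it was at 12.4, 13.9 and 11.7 CPM at 10 h and 9.22 and 11.1 CPM in replicates 2 and 3 at 34 h, a log2 change of -0.31 (SE 0.24, adjusted p = 0.343 by edgeR) that was not called. WT ZT34 replicate 1, outside that fit, read 20.1 CPM, above the 3 WT values at 10 h.

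ENSRNOG00000061081 had the largest log2 change, 1.39 (SE 0.50, adjusted p = 0.0200 by edgeR), and it rests on 1 library. Its KO values were 12.8, 34.8 and 20.2 CPM at 10 h and 15.1, 19.8 and 149.6 CPM at 34 h. Replicate 3 alone stood above the range of 10 h. Without replicate 3 the log2 change was -0.50 (adjusted p = 0.424), and with the replicate number as a block it was 1.10 (adjusted p = 0.0637). With the KO libraries alone in the fit the adjusted p was 0.0663.

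Among the lowered members, ENSRNOG00000031033 had KO levels of 682, 596 and 606 CPM at 10 h and 569, 244 and 271 CPM at 34 h. All late values were below the early ones, and replicate 1 was the nearest to them. The log2 change was -0.86 (SE 0.24, adjusted p = 0.00324 by edgeR), but the adjusted p was 0.0897 without replicate 2 and 0.181 with WT ZT34 replicate 1 in the fit. Its WT levels went from 56.8, 56.5 and 60.3 CPM at 10 h to 79.7 and 91.6 CPM in replicates 2 and 3 at 34 h, and the log2 change of 0.59 (SE 0.27, adjusted p = 0.0945 by edgeR) was not called. ENSRNOG00000014963 had 22.04, 20.03 and 23.5 CPM at 10 h and 14.1, 12.7 and 11.2 CPM at 34 h in KO. These did not overlap, and the log2 change was -0.85 (SE 0.14, adjusted p = 7.08e-06 by edgeR). Its WT log2 change was -0.09 (SE 0.19).

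**Figure D5:**
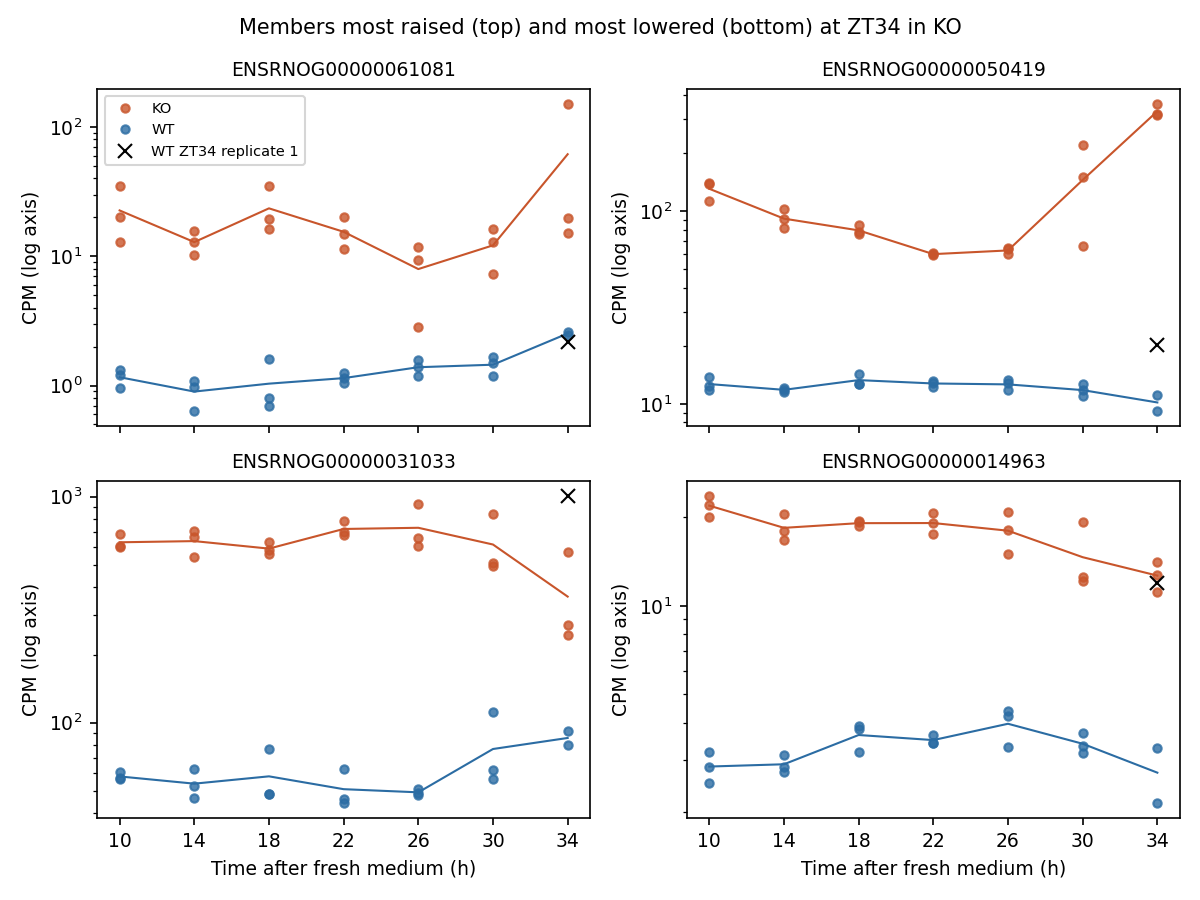
Levels of the 2 most raised (top) and 2 most lowered (bottom) members by time after fresh medium, in CPM on log axes, with a point per library, lines through group means, and WT ZT34 replicate 1 as a cross outside the WT line. The rise of ENSRNOG00000061081 at 34 h is 1 library at 149.6 CPM, while the 3 replicates of ENSRNOG00000050419 lie together at 315 to 360 CPM.

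The series' title names rhythmic expression, and a 24 h cosine was fitted to the 21 KO libraries. It was called for 42 of the 114 members (36.8%), against 34.6% of 13753 genes tested. The amplitudes of the called members, from the fitted mean to the peak on the log2 scale, were 0.08 to 0.96 with a median of 0.22. Peaks fell from 26 to 30 h in 13 of them and from 30 to 34 h in 15. The calls changed with the libraries used. Without replicate 1, 13 members (11.4%) were called, against 6.90% of all genes, and without replicate 2 there was 1 (0.877%), against 0.255%. Without replicate 3, 0 members were called. In the last set edgeR called 0 genes of any kind, while an unadjusted p under 0.05 was found for 37 members and 3804 genes. Only 1 cycle was sampled, so a repeat of any peak was not seen.

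A few members were very uneven between KO replicates. The SD of log2 level between replicates of a KO group had a median of 0.13 over members and 0.10 over all genes. It was at least 0.5 in 7 of the 114 members, against 2.50% of all genes. The least steady was ENSRNOG00000055323, at an SD of 1.37, followed by another member at 1.30. These 2 moved almost as one over the 21 KO libraries, with a Pearson correlation of 0.993 between their log2 levels, which share library and depth. The second member read 16.4, 0.787 and 0.306 CPM at 34 h beside 17.4, 0.689 and 0.184 CPM for the first. Whether the 2 share reads, as overlapping or near-identical genes can, was not tested. ENSRNOG00000051920 had 1 high library, KO ZT22 replicate 2 at 156 CPM, beside 16.5 and 15.8 CPM in the other replicates of that time and 12.7 to 33.7 CPM elsewhere in KO.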

How the data were processed

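The authors deposited a table of raw counts of reads per gene for each genotype. The counting program was featureCounts, per the submitters' processing notes, and the libraries were strand-specific pairs of 150 bp reads, per the labels' protocols. Aligner, genome build, annotation, strand setting of the counting and filter on genes are not given in the sources used here, so the levels of overlapping, antisense or near-identical genes are uncertain. In its highest group, the lowest gene of the tables averaged 50.3 counts.

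CPM was computed from the deposited counts without 2 genes, as the rule for members states. Tests were run with edgeR 4.0.16 in R 4.3.3 (quasi-likelihood F test, TMM scaling, filterByExpr) over all genes, with Benjamini-Hochberg adjustment and a threshold of 0.05. The model of 14 groups used 41 libraries, without WT ZT34 replicate 1; its filter removed 0 genes. The cosine with a 24 h period used 21 KO libraries, and its filter removed 23 genes and no member. The filter therefore left all 114 members in every test reported. A standard error is the log2 fold change divided by the square root of F. On simulated counts for 13776 genes with 200 changed by a log2 amount of 1, the KO 34 h against 10 h test recovered 89.5% with 7 false calls. The called members had smaller median log2 changes, 0.44 for the raised and -0.50 for the lowered. Recovery of changes of that size was not simulated. Alternatives included DESeq2 1.42.0.

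The members and gene lists were chosen with earlier results of these data known. The rule for named genes took members by KO level, by fold of KO over WT, by distance to the threshold, by called change from 10 h to 34 h in KO, and by the ratio of WT ZT34 replicate 1 to the other WT ZT34 libraries. Because no symbol could be matched, identifiers are printed for at most 2 per direction and the rest are given as values. The gene lists, cell type markers and promoter windows drawn up could not be matched for the same reason and were not used.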

Additional observations from a re-analysis of the deposited data

Results flagged for a closer look

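WT ZT34 replicate 1, left out of the choice of members and of the tests, held the highest WT value of 97 of the 114 members, against 41% of all genes. The members are by construction low in the other WT libraries, and leaving this library out favoured genes that are high in it. With 1 such library the difference has no replicate check.

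For ENSRNOG00000050419 the fitted change from 10 h to 34 h had opposite signs in the genotypes, though only that of KO was called. The log2 change was 1.28 in KO, with all 3 late replicates above the early ones, and -0.31 in WT (adjusted p = 0.343 by edgeR), with both late replicates used below the early ones. WT ZT34 replicate 1, not used, read 20.1 CPM, above the WT values at 10 h, so the WT direction depends on leaving it out. For ENSRNOG00000031033 it was -0.86 in KO and 0.59 in WT (adjusted p = 0.0945 by edgeR), again with every late replicate used on the stated side of the early ones. The difference between the genotypes was not tested for either gene.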

How the results depend on the processing

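Across 12 results, 124 of 144 alternative values kept a count within 1.5 times or a log2 change with its direction and call. In the model of 14 groups the filter removed 0 genes, so fits without a filter repeated the main values and could not move. The 144 also include 13, all kept, for the count of all genes called in KO against WT. The tally is therefore no measure of how firm the results on members are. The number of members, 114, was 54 with CPM over the full library total, of which 52 were shared, 35 with WT ZT34 replicate 1 included, 266 at a ratio of at least 3 and 51 at 5, where the construction of the rule sets the change. It was 95 to 125 with a replicate number left out. With all 42 libraries, 16 members were called in the KO time course (36.8% of all genes), 8 higher (16.5%) and 6 lower (17.5%) at 34 h against 10 h in KO, and 86 in the WT time course (37.5%). Without the ZT34 libraries 39 (39.8% of all genes) were called in the KO time course, where fewer libraries and times were used. With each replicate number left out, where a lone WT ZT34 library is assumed to vary like the other groups, the counts were 38 to 55 for the KO time course (40.3% to 52.9% of all genes), 13 to 18 higher (18.8% to 20.5%) and 15 to 32 lower (19.7% to 23.3%) at 34 h, 35 to 37 for the WT time course (19.8% to 37.1%), and 0 to 13 for the cosine (0% to 6.90%). The log2 change of ENSRNOG00000061081 ranged from -0.50, a reversal without replicate 3, to 2.27 without replicate 2. Without KO ZT30 replicate 1, 66 members (57.9%) were called in the KO time course, against 62% of all genes. In that fit 20 (17.5%) were higher at 34 h, against 24.1%, and 36 (31.6%) lower, against 27.4%. The WT time course was called for 44 (38.6%), against 48.4%, and the cosine for 46 (40.4%), against 35.6%. With the replicate number as a block, 64 members (56.1%) were called in the KO time course, against 60% of all genes. There 19 (16.7%) were higher at 34 h, against 23.6%, and 36 (31.6%) lower, against 26.9%. With the block the WT time course was called for 39 (34.2%), against 43.4%, and the cosine for 43 (37.7%), against 31.1%. KO against WT was called for 11579 genes. The block changed no call of the 4 named changes except that of ENSRNOG00000061081, at 1.10 (adjusted p = 0.0637 by edgeR). The numbers share no stated pairing: same-numbered libraries had a mean correlation of deviations from group means of 0.0157 in KO and -0.00943 in WT. In KO 10 of 21 libraries and in WT 6 of 18, WT ZT34 left aside, correlated best with their own number. For changes without a stated construction the cause was not tested. Depth limits members low in WT, 9 of which lay under 1 CPM.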
